A study of Schistosoma mansoni with 6 samples.

Results

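Genes of DNA repair that carry no cell cycle annotation were followed in adult male Schistosoma mansoni, the blood fluke, after exposure to gamma rays. The deposited gene table was searched for rows with exons whose biological process terms name DNA repair or the response to DNA damage. Of 10770 rows with exons, 122 carried either term, and 102 remained after leaving out rows with a cell cycle term, rows whose product name is that of a kinase, ubiquitin or proteasome component, licensing factor, histone or zinc finger protein, and 6 identifiers. Of those 6, only the mre11 gene (Smp_068110) carried a repair term in this table. Both terms stood on 46 of the 102 genes, DNA repair alone on 28 and the damage response alone on 28. All but 1 of the 102 (101) rest on electronic annotation only, and 35 are named hypothetical protein. Irradiated worms were NMRI strain males given 200 Gy and kept in culture for 48 hours, and controls were males of the same strain given a mock exposure and the same culture. Worms of both groups came from mice 43 days after infection, were separated from females, and lost the head and testes before RNA was taken from pools of 14 to 18 bodies. There were 3 libraries of each group, lettered A, B and C, and no label says whether each pool had its own infection. The p-values therefore cover pool-to-pool spread, which may be technical.

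DNA repair is a set of pathways, each for its own kind of lesion. Glycosylases and AP endonucleases remove single damaged bases, nucleotide excision cuts out bulky lesions, mismatch repair corrects copying errors, and end joining or recombination rejoins broken strands. Checkpoint proteins sense damage and hold the cell cycle. Ionizing radiation breaks DNA and oxidizes bases, and neoblasts, the somatic stem cells of adult schistosomes, are the cells of the body that divide. The roles given here are those of the yeast and vertebrate proteins of the same name.

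Total exon reads ran from 21594259 to 29641087 in the irradiated libraries and from 17577059 to 26858868 in the controls. Levels are given as CPM, library-scaled counts per 1000000 reads, and between genes as the deposited RPKM, which divides by exon length. The depth allows a gene with 0 reads a level of up to 0.101 to 0.171 CPM (3 reads, counting error only). The 4 stem cell genes ago2-1, nanos-2, fgfrA and fgfrB, picked from knowledge of this study, had a summed level of 12.2 to 16.7 RPKM in irradiated libraries and 46.5 to 49.7 RPKM in controls, and all 4 were called lower. Their part in the falls of repair genes was not tested. In such bulk tissue, fewer cells of a type and less RNA per cell cannot be told apart. Libraries lettered B stood apart in both groups: of 718 tested genes with at least 4000 bases of exon, 70.1% had their highest level in library B of both groups, against 21.8% of all tested genes.

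Some repair genes fell after irradiation, and none was called higher. Of the 102 genes, 96 had enough reads to test, 8 were lower after irradiation and 0 higher. Calls are from the quasi-likelihood test of edgeR, at p below 0.05 after Benjamini-Hochberg adjustment over 8885 genes. Among all tested genes, 2.49% were called lower and 0.619% higher, or 3.11% in either direction. The 8 were the checkpoint genes topbp1, rad1 and hus1, a thymine DNA glycosylase, a photolyase and the hypothetical proteins Smp_138610, Smp_083710 and Smp_055720. At an unadjusted p under 0.05, 28 genes were lower and 4 higher, while 13.3% and 8.27% of all tested genes passed that limit in the same directions. DESeq2 and limma also called 0 higher. Groups did not overlap for 30 genes with lower irradiated values and 7 with higher ones, and over all tested genes these shares were 13.3% and 12%. Summed over the 102 genes, repair took 0.535%, 0.539% and 0.543% of exon reads in irradiated A, B and C. In controls it took 0.555%, 0.576% and 0.563%, so every irradiated library lay below every control by this share. Summed RPKM, which divides by exon length, overlapped, at 2360 to 2476 after irradiation and 2383 to 2490 in controls. The median log2 fold change was -0.07, against 0.00 over all tested genes, and 69 of 96 lay below 0. The number called lower rested on single libraries. It was 3 without control C, 4 without control B, irradiated A or irradiated C, 9 without control A and 13 without irradiated B. With library B left out of both groups it was 11.

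**Figure D1:**
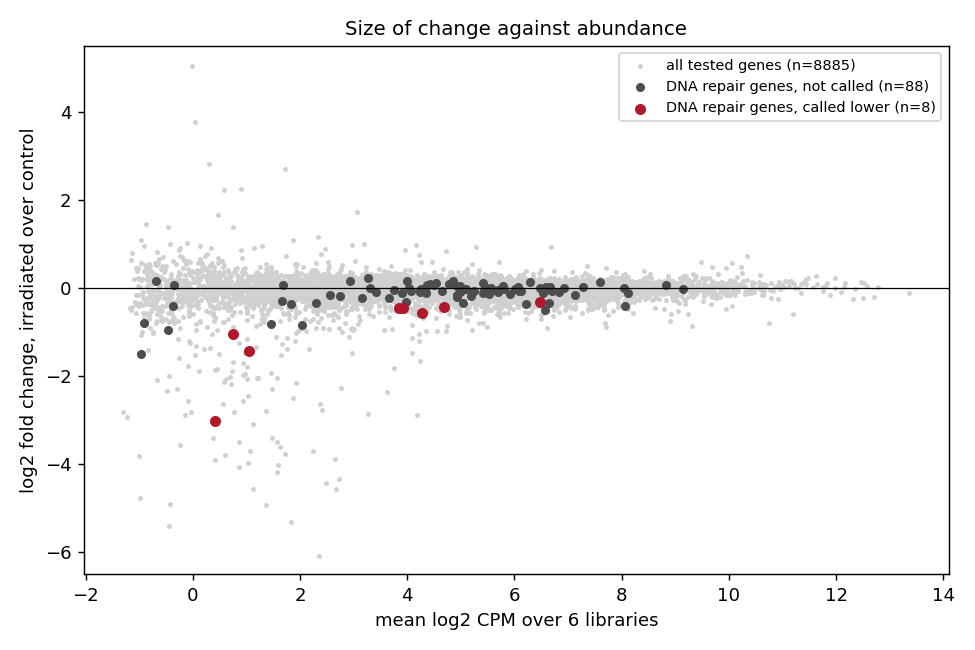
Log2 fold change of irradiated over control (vertical) against mean log2 CPM over the 6 libraries (horizontal) for all 8885 tested genes (grey), 88 DNA repair genes not called (dark) and 8 called lower (red). The red points reach down to -3.03 at low abundance, and no repair gene lies above 0.24.

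Changes were largest where the level was low. Among the 8 tested repair genes with a mean log2 CPM under 1, 2 were called lower, with a median log2 fold change of -0.88. In the same range of all tested genes, 46 of 677 were called lower and the median was -0.04. The read filter needs enough reads in only as many libraries as 1 group holds. A gene that is low after irradiation can thus enter through its controls alone, as topbp1 did. The falls of repair genes in this range rest in part on such genes. Between 1 and 4 there were 3 of 21 repair genes, against 82 of 1970 over all genes. At 4 or more there were 3 of 67, against 93 of 6238, with medians of -0.05 and 0.01.

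**Figure D2:**
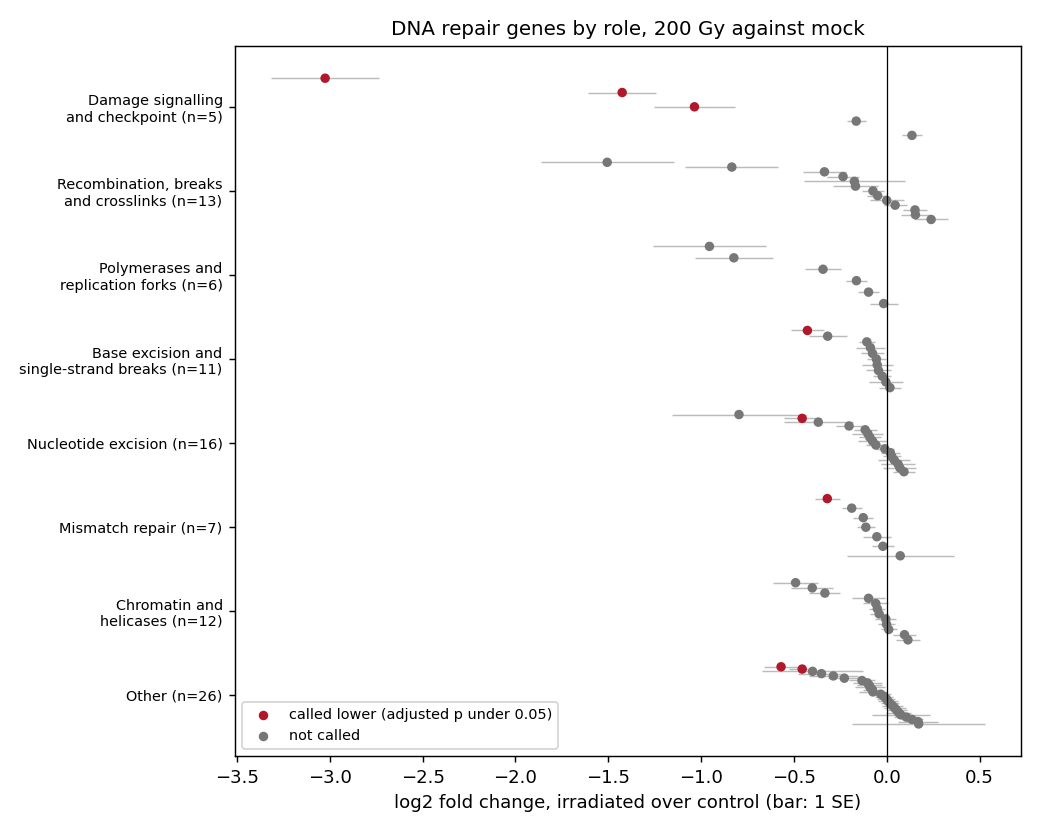
Log2 fold change with 1 SE for each of the 96 tested repair genes, in rows by role, with called genes in red. Among damage signalling genes 3 of 5 were called, and in every other role at most 2.

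By role, the median log2 fold change was -1.04 for damage signalling, -0.25 for polymerases and replication forks, and between -0.11 and -0.02 in the other roles. The first is the value of 1 gene, hus1, in the middle of 5, and it depends on which genes were placed in the role. The damage signalling and checkpoint genes held the 3 largest falls among the called genes. TopBP1 is a scaffold that switches on the checkpoint kinase ATR at damaged or stalled replication forks. Its gene, topbp1 (Smp_133990), had 0.372, 0.232 and 0.209 CPM in irradiated A, B and C, against 2.01, 2.84 and 2.06 CPM in the controls of the same letters. Every irradiated library lay far below every control, an 8.14-fold lower level, and the fitted log2 change was -3.03 (SE 0.29, adjusted p = 0.000320, edgeR). The irradiated values rest on 11, 5 and 5 reads, near the limit of detection, so the size of this fold is imprecise. Rad1 and Hus1 form, with Rad9, the ring-shaped clamp that is loaded onto damaged DNA and recruits TopBP1. The rad1 gene (Smp_075110) had 0.980, 1.11 and 1.21 CPM in irradiated libraries, against 2.54, 3.28 and 3.08 CPM in controls. Its log2 fold change was -1.43 (SE 0.18, adjusted p = 0.00222, edgeR), 2.69-fold lower, with no overlap. The hus1 gene (Smp_176500) had 0.879, 1.30 and 1.09 CPM after irradiation, against 2.16, 1.84 and 2.68 CPM in controls, and again the groups did not overlap. Its log2 fold change was -1.04 (SE 0.22, adjusted p = 0.0393, edgeR). With 1 library left out, that call survived only the loss of irradiated B, and adjusted p lay between 0.0589 and 0.167 otherwise (edgeR). A second row named hus1 (Smp_196550) had no read in any library.

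The rows named ATM and ATM-related were not called. ATM is the kinase that answers double-strand breaks. The row named ATM (Smp_157820) had 85.9, 78.8 and 81.6 CPM after irradiation, against 78.7, 72.3 and 73.2 CPM in controls. The groups just missed each other, and the log2 fold change of 0.14 (SE 0.05) was not called (adjusted p = 0.194, edgeR). The ATM-related row Smp_122910 had 131.3, 131.6 and 132.6 CPM after irradiation, against 142.3, 157.9 and 142.9 CPM in controls, all irradiated values being lower. The log2 difference was -0.16 (SE 0.05, adjusted p = 0.116, edgeR). Placing topbp1 in this role followed its product name, after its values were known. Without it, 2 of 4 genes were called. The XPF gene (Smp_153770), not called at a log2 fold change of 0.03, was moved by hand from this role to nucleotide excision. The share called and the median of this role depend on both moves.

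**Figure D3:**
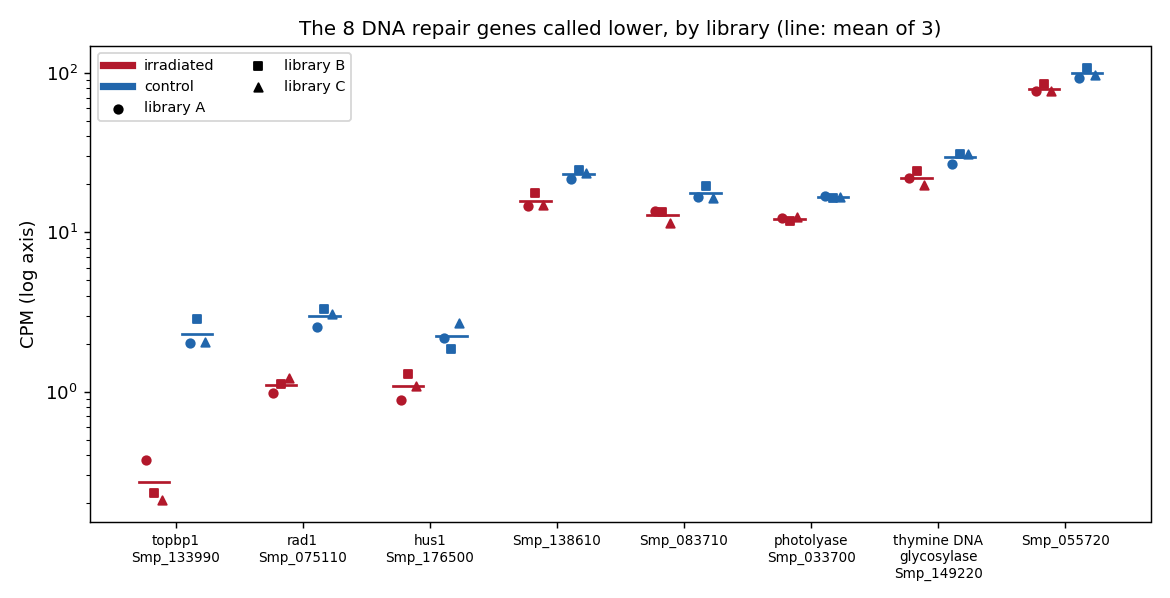
CPM on a log axis in each library (markers for A, B and C, line at the mean of 3) for the 8 repair genes called lower, irradiated (red) left of control (blue). In all 8 the highest irradiated library lies below the lowest control, with the widest gap for topbp1.

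Of 13 tested genes of recombination, double-strand break and crosslink repair, 0 were called by edgeR in either direction, 4 were lower and 2 higher at an unadjusted p under 0.05, and DESeq2 called 1 lower.

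Genes of end joining, which works without a sister copy, lay near 0. The ku P80 gene (Smp_083780), whose product caps broken ends, had 19.2, 20.9 and 21.0 RPKM after irradiation, against 20.4, 21.9 and 20.7 RPKM in controls. Its log2 fold change was -0.07 (SE 0.06). The gene named X-ray repair cross complementing protein (Smp_135860), annotated to end joining, had a log2 fold change of 0.05 (SE 0.06) and overlapping groups, at 32.9, 29.2 and 30.4 CPM after irradiation and 30.1, 29.9 and 29.7 CPM in controls. TRAD-d4 (Smp_134090), annotated to recombination, lay at 0.15 (SE 0.08), with 17.6, 16.6 and 15.9 CPM after irradiation and 15.9, 14.7 and 14.4 CPM in controls. Irradiated C lay just inside the control range. Hypothetical proteins annotated to recombination spread to both sides. Smp_055140 had 10.5, 9.63 and 10.7 CPM after irradiation, against 8.13, 8.92 and 9.13 CPM in controls, the highest log2 fold change of all 96 tested genes at 0.24 (SE 0.09, adjusted p = 0.168, edgeR). Smp_152670 lay at -0.34 (SE 0.12), Smp_151510 at -0.24 (SE 0.09) and the short, abundant Smp_173300 at -0.17 (SE 0.27), none of them called. Smp_152670 had 4.39, 4.21 and 4.22 CPM after irradiation, against 5.86, 4.86 and 5.48 CPM in controls. Smp_151510 had 8.35, 7.78 and 8.32 CPM in irradiated libraries, against 9.62, 9.14 and 10.1 CPM in controls, and neither gene's groups overlapped. The level of Smp_173300 was 8.25, 5.93 and 4.26 CPM after irradiation, against 6.23, 5.21 and 9.99 CPM in controls, a wide spread within each group. An acylaminoacyl-peptidase (Smp_211060), a protease by name that carries an end joining term, lay at 0.15 (SE 0.07, adjusted p = 0.219, edgeR), with 82.9% of its exon reads unique. Its groups did not overlap, with 31.2, 28.2 and 31.2 CPM after irradiation and 28.1, 26.1 and 27.5 CPM in controls.

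Polymerases and replication fork genes all lay below 0, though 0 of 6 were called by edgeR in either direction. Of these, 4 were lower at an unadjusted p under 0.05 and DESeq2 called 2 lower. The chromosome transmission fidelity factor (Smp_042810), annotated as a clamp loader, had 0.659, 0.397 and 0.798 RPKM after irradiation, against 1.14, 1.03 and 1.08 RPKM in controls. The fitted log2 change was -0.82 (SE 0.21, adjusted p = 0.0706, edgeR), without overlap, and it was called without irradiated B (adjusted p = 0.0467, edgeR). A DNA polymerase I row (Smp_055500) had 12, 13 and 8 reads after irradiation, against 26, 20 and 12 reads in controls, a log2 change of -0.96 (SE 0.30, adjusted p = 0.119, edgeR). A second row of that name (Smp_197760) lay at -0.02 (SE 0.07). REV1 (Smp_143760) and polymerase eta (Smp_136180) copy past damaged bases. Their log2 fold changes were -0.34 (SE 0.10) and -0.16 (SE 0.06), neither called. REV1 had 30.6, 29.6 and 26.8 CPM after irradiation, against 33.8, 42.7 and 34.1 CPM in controls, with control B the highest. Polymerase eta had 27.6, 29.2 and 29.1 CPM after irradiation, against 31.4, 31.6 and 33.2 CPM in controls. Neither gene's groups overlapped. Polymerase gamma (Smp_161380), the mitochondrial copying enzyme, lay at -0.10 (SE 0.06), with 48.8, 52.0 and 49.0 CPM after irradiation and 52.0, 56.9 and 51.3 CPM in controls.

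In base excision and single-strand break repair, 1 of 11 tested genes was called lower, against 2.49% of all tested genes. At an unadjusted p under 0.05 (edgeR), 3 of the 11 were lower and 0 higher, against 13.3% and 8.27% of all tested genes. Below 0 lay 10 of the 11. The called gene was that of thymine DNA glycosylase (Smp_149220), whose enzyme removes thymine mispaired with guanine. Its level was 21.9, 24.3 and 19.9 CPM after irradiation, against 27.0, 30.9 and 31.0 CPM in controls, with every irradiated library below the controls. The log2 fold change was -0.43 (SE 0.09, adjusted p = 0.0377, edgeR), a call kept only without control A or irradiated B, with adjusted p from 0.134 to 0.158 when another library was left out. Poly(ADP-ribose) polymerase marks strand breaks for repair. The abundant gene of that name (Smp_129260) had 269.0, 263.7 and 265.7 CPM after irradiation, against 291.3, 273.6 and 295.3 CPM in controls. All irradiated values were lower, with a log2 change of -0.11 (SE 0.04, adjusted p = 0.205, edgeR). A second such gene (Smp_145810) had 15.3, 15.0 and 11.7 CPM after irradiation, against 17.6, 17.7 and 17.1 CPM in controls, and lay at -0.32 (SE 0.10, adjusted p = 0.123, edgeR).

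The other glycosylases and the AP endonucleases lay close to their control level. Uracil-DNA glycosylase (Smp_158920) averaged 30.7 RPKM in both groups, with a log2 fold change of -0.02 (SE 0.05). Endonuclease III (Smp_006710), which cuts at oxidized pyrimidines, averaged 40.5 RPKM after irradiation and 39.3 RPKM in controls. The 8-oxoguanine glycosylase (Smp_074010), for the main oxidized form of guanine, had a log2 fold change of -0.05 (SE 0.08). Flap endonuclease-1 (Smp_186980), which trims displaced strands, lay at -0.04 (SE 0.07), with 18.8, 18.4 and 18.5 CPM after irradiation and 20.4, 18.5 and 18.5 CPM in controls. The AP endonuclease rows Smp_051320 and Smp_167500, which cut where a base has been lost, lay at -0.08 (SE 0.06) and -0.06 (SE 0.05).

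Nucleotide excision repair had 1 gene called lower of 16 tested, against 2.49% of all tested genes. At an unadjusted p under 0.05 (edgeR), 2 of the 16 were lower and 0 higher, against 13.3% and 8.27% of all tested genes. Smp_083710 is a hypothetical protein annotated with helicase and excinuclease activity. It had 13.5, 13.4 and 11.4 CPM after irradiation, against 16.5, 19.6 and 16.5 CPM in controls, with no overlap. The log2 fold change was -0.46 (SE 0.10, adjusted p = 0.0453, edgeR), a call kept only without control A or irradiated B, with adjusted p from 0.0954 to 0.173 otherwise. Rad23 (Smp_061920) helps XPC find damage and had the highest mean RPKM of the tested repair genes. It had 255.8, 245.7 and 263.6 RPKM after irradiation, against 254.4, 239.1 and 263.9 RPKM in controls, and the groups overlapped throughout. XPC itself (Smp_021550), the damage sensor, had 27.6, 30.2 and 27.5 CPM after irradiation, against 30.7, 32.7 and 34.9 CPM in controls, without overlap. It lay at -0.20 (SE 0.07, adjusted p = 0.139, edgeR). The TFIIH polypeptide (Smp_082790), part of the complex that opens DNA around a lesion, lay at 0.02 (SE 0.05), with 93.5, 95.1 and 100.6 CPM after irradiation and 95.05, 98.9 and 91.2 CPM in controls. XPF (Smp_153770) and ERCC1 (Smp_022470), which together cut on the 5′ side, lay at 0.03 (SE 0.05) and 0.06 (SE 0.09) on the log2 scale.

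Among 7 tested mismatch repair genes, 1 was called lower, against 2.49% of all tested genes. At an unadjusted p under 0.05 (edgeR), 4 of the 7 were lower and 0 higher, against 13.3% and 8.27% of all tested genes. Below 0 lay 6 of the 7. Smp_055720 is a hypothetical protein annotated to bind mismatched DNA and ATP. It had 76.8, 84.9 and 76.5 CPM after irradiation, against 92.6, 107.9 and 96.9 CPM in controls. The groups did not overlap, and the log2 fold change was -0.32 (SE 0.07, adjusted p = 0.0402, edgeR), called only without control A or irradiated B among the fits that left out a library (adjusted p from 0.137 to 0.161 in the others). PMS2 (Smp_143380) is part of the complex that nicks the strand to be corrected. It had 34.7, 33.8 and 33.5 CPM after irradiation, against 37.1, 39.2 and 40.2 CPM in controls, a log2 change of -0.19 (SE 0.05, adjusted p = 0.0971, edgeR). Smp_181260, annotated to bind mismatched DNA, lay at -0.11 (SE 0.05), with 40.2, 42.1 and 40.1 CPM after irradiation and 44.3, 43.9 and 44.1 CPM in controls. PMS2 and Smp_181260 were each lower in all irradiated libraries, by small amounts. The abundant Smp_035620 lay at -0.02 (SE 0.06), with 34.9, 33.2 and 33.9 CPM after irradiation and 36.2, 32.9 and 34.4 CPM in controls.

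Of 12 tested chromatin factors and helicases, 0 were called by edgeR in either direction, 3 were lower at an unadjusted p under 0.05, and DESeq2 called those 3 lower. All 3 were long genes in which library B was the highest of each group. Transcription-associated protein 1 (Smp_024190), a subunit of histone acetyltransferase complexes, had 73.8, 92.7 and 70.9 CPM after irradiation, against 96.02, 129.5 and 107.8 CPM in controls. Its log2 fold change was -0.49 (SE 0.12, adjusted p = 0.0671, edgeR), and -0.49 with adjusted p = 0.00352 when library B was left out of both groups. The gene Smp_142710 is named fkbp-rapamycin associated protein, after the growth kinase mTOR, and was placed in this role by its chromatin modification term. It had 209.2, 272.1 and 213.6 CPM after irradiation, against 268.9, 345.3 and 303.2 CPM in controls. Irradiated B alone reached into the control range. The log2 fold change was -0.40 (SE 0.11, adjusted p = 0.0892, edgeR), and -0.44 with adjusted p = 0.00555 without library B of both groups. Smp_001180, a hypothetical protein with a helicase term, had 85.4, 99.3 and 80.7 CPM after irradiation, against 105.7, 121.5 and 106.9 CPM in controls. It lay at -0.33 (SE 0.08, adjusted p = 0.0671, edgeR), and at -0.36 with adjusted p = 0.00501 without those libraries. Reptin (Smp_132690), an ATPase of chromatin remodelling complexes, lay at -0.01 (SE 0.06), with 276.3, 254.0 and 262.3 CPM after irradiation and 263.3, 249.7 and 282.8 CPM in controls. MRG-binding protein (Smp_130630) lay at 0.11 (SE 0.06), with 47.2, 41.0 and 44.3 CPM after irradiation and 42.0, 39.9 and 40.6 CPM in controls.

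**Figure D4:**
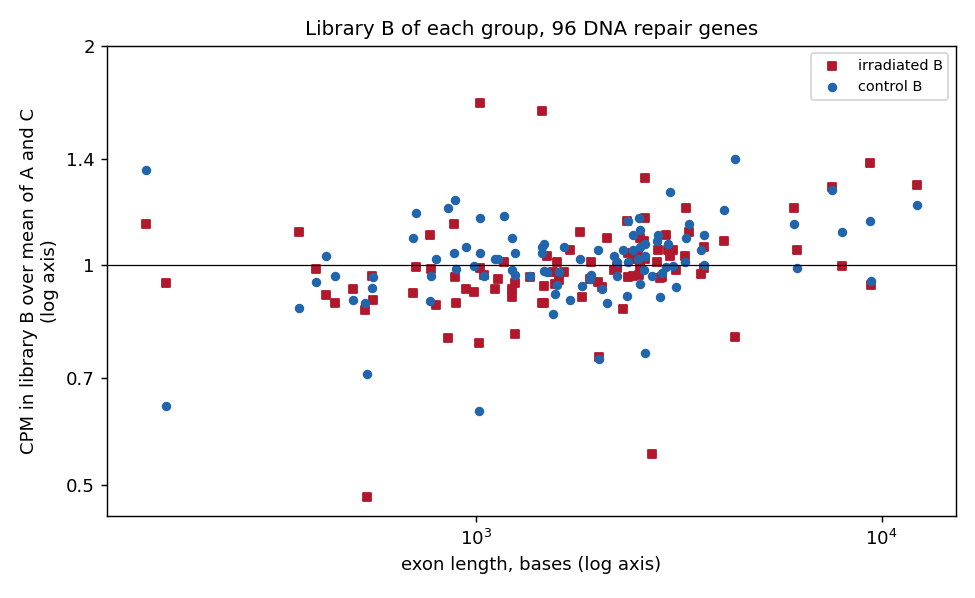
CPM in library B divided by the mean of A and C of the same group (vertical, log axis) against exon length (horizontal, log axis) for the 96 tested repair genes, irradiated (red squares) and control (blue circles). The longest gene, Smp_142710 with 12226 bases, lies at 1.29 in irradiated B and 1.21 in control B. The next longest, Smp_157820 with 9417 bases, lies at 0.94 and 0.95. Of 9 repair genes with at least 4000 bases of exon, 4 had their highest level in library B of both groups, as did 12.5% of the 96.

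Among the remaining 26 tested genes, 2 were called lower, against 2.49% of all tested genes. At an unadjusted p under 0.05 (edgeR), 4 of the 26 were lower and 1 higher, against 13.3% and 8.27% of all tested genes. Photolyases use light to reverse lesions made by ultraviolet rays, and the related cryptochromes sense light. The photolyase gene Smp_033700 had 12.2, 11.8 and 12.4 CPM after irradiation, against 16.9, 16.4 and 16.6 CPM in controls, 3 close values on each side of a clear gap. The fitted log2 change was -0.46 (SE 0.07, adjusted p = 0.00680, edgeR). A second photolyase gene (Smp_125890) had 12.5, 10.7 and 11.6 CPM after irradiation, against 13.9, 14.3 and 12.7 CPM in controls. It was not called, at -0.23 (SE 0.09, adjusted p = 0.180, edgeR), and the difference between these genes was not tested. Smp_138610, a hypothetical protein with transcription and damage response terms, had 14.5, 17.6 and 14.8 CPM after irradiation, against 21.7, 24.5 and 23.4 CPM in controls. The log2 fold change was -0.57 (SE 0.09, adjusted p = 0.00897, edgeR), a call lost only without control C (adjusted p = 0.0571). The calls of topbp1, rad1 and the photolyase were kept in all 6 fits that left out a library. Of the hypothetical proteins in this group that were not called, Smp_138400 lay at -0.35 (SE 0.13) and Smp_154610 at 0.14 (SE 0.06). Smp_138400 had 56.2, 79.8 and 59.4 CPM after irradiation, against 73.8, 91.1 and 84.1 CPM in controls, irradiated B lying above control A. Smp_154610 had 196.8, 205.8 and 206.3 CPM after irradiation, against 196.6, 188.6 and 168.5 CPM in controls, the lowest irradiated value just above the highest control. The abundant Smp_195060, annotated as a DNA ligase, lay at -0.10 (SE 0.08), with 90.1, 85.0 and 93.1 CPM after irradiation and 90.6, 89.5 and 108.9 CPM in controls. Smp_015480, annotated as an endonuclease, lay at 0.06 (SE 0.07), with 472.8, 424.8 and 501.3 CPM after irradiation and 458.9, 460.6 and 418.6 CPM in controls, and 65.2% of its exon reads were unique. A row named rab geranylgeranyl transferase (Smp_208000), which carries polymerase terms, lay at 0.17 (SE 0.11), with 7.94, 7.68 and 8.23 CPM after irradiation and 7.76, 7.26 and 6.05 CPM in controls.

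The precision of the data limits how large an unseen rise could be. For 90 of the 96 tested genes, the log2 fold change plus 2 SE lay under a 25% rise, which held for 85.2% of all tested genes. For all 96 that bound lay under a 2-fold rise, and the highest was 0.88 on the log2 scale, for Smp_173880 with 77 reads in all. The whole interval of 2 SE on either side lay between a 20% fall and a 25% rise for 63 genes, while 66.8% of all tested genes were so bounded. By point estimate 20 genes were lower by more than 20% and 0 higher by more than 25%, against 7.65% and 2.44% of all tested genes.

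Among the 6 genes with too few reads to test, Smp_189130 and Smp_196550 had none, Smp_178000 had 1 read and Smp_114080 had 2. Smp_050310, a hypothetical protein with a helicase term, had 1 read after irradiation and 18 in controls, a ratio of 0.0498 after scaling to library totals (95% interval 0.00119 to 0.315, exact, counting error only). It did not pass in a fit with no filter beyond 1 read (adjusted p = 0.0530, edgeR).

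The falls were seen to different degrees in reads inside and outside exons. For topbp1, exon reads had a log2 ratio of -3.04 over summed libraries and reads across exon junctions -2.23 (5 reads after irradiation and 21 in controls), while gene reads outside exons stood at -0.04, with 92 and 85 reads. With all gene reads counted, the fall of topbp1 was -1.20 and still called (adjusted p = 0.0155, edgeR). The calls of rad1, Smp_138610 and the photolyase were also kept with all gene reads, and those of hus1, the glycosylase gene, Smp_083710 and Smp_055720 were lost (adjusted p from 0.0683 to 0.0820, edgeR). With exon-exon reads alone, 6 of the 8 genes could be tested. The calls of rad1, Smp_138610 and Smp_055720 were kept, and those of hus1, the glycosylase gene and the photolyase were lost (adjusted p of 0.0511, 0.0591 and 0.0983, edgeR). For hus1 the ratios were -1.04 in exons, -1.82 across junctions and -0.40 outside exons. For rad1, Smp_138610, the glycosylase gene and Smp_055720, the log2 ratios of reads outside exons were -1.05, -0.66, -0.36 and -0.42. For the photolyase the ratio outside exons was -0.28. For Smp_083710 it was 0.15, with 47 reads after irradiation and 38 in controls. The genes hus1, the photolyase and Smp_138610 overlap an adjacent gene in the RefSeq table, so reads outside their exons can belong to that neighbour, and no label says that strand was kept. None of the tested adjacent genes of these 3 was called, with log2 fold changes between -0.11 and 0.07. For topbp1 and Smp_055720 no adjacent gene was found in the RefSeq table, so overlap could not be checked. Their reads outside exons can also belong to a neighbour.

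**Figure D5:**
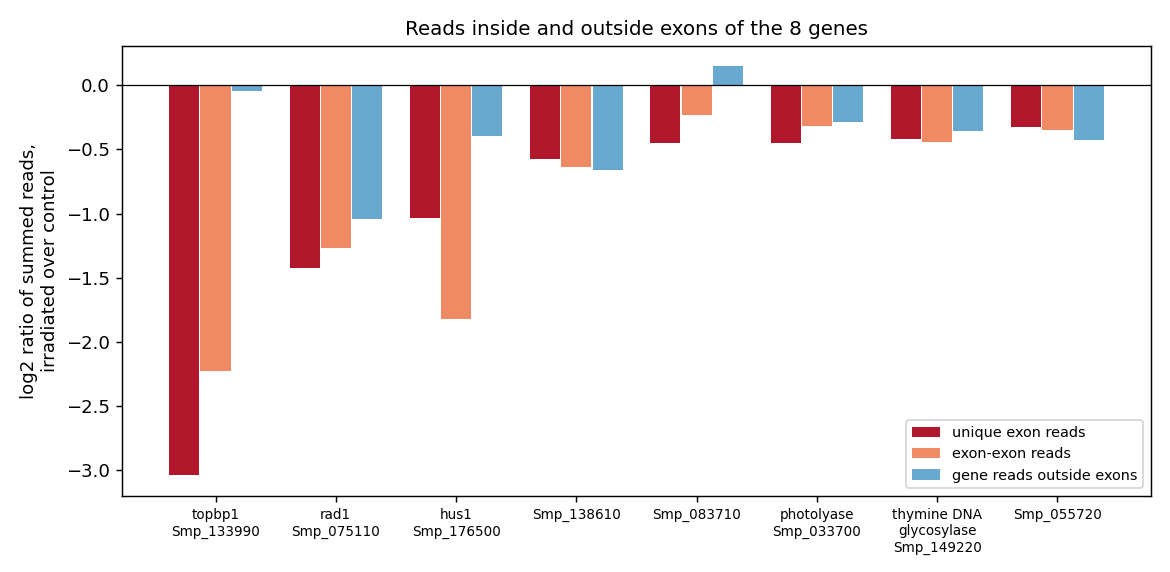
Log2 ratio of summed reads, irradiated over control, for unique exon reads, exon-exon reads and gene reads outside exons in the 8 genes called lower. For topbp1 the exon bar reaches -3.04 and the bar outside exons -0.04.

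Of 6 annotation terms beyond those of the rule, 3 stood on 1 called gene each and 3 on none. Of 15 tested genes that also carry a DNA replication term, 1 was called lower, and of 81 without it, 7. Of 17 with a transcription term 1 was called, and of 79 without it, 7, with medians of 0.00 and -0.08. Of 15 with helicase activity 1 was called, and of 81 without it, 7. With a recombination term, 0 of 13 were called by edgeR, against 8 of 83 without it, though 4 of the 13 were lower and 1 higher at an unadjusted p under 0.05 and DESeq2 called 1. With a chromatin term, 0 of 11 were called by edgeR, against 8 of 85 without it, with 4 of the 11 lower and 1 higher at that limit and 3 called by DESeq2. With endonuclease activity, 0 of 19 were called by edgeR and 0 by DESeq2, against 8 of 77 by edgeR without it, with 2 of the 19 lower and 1 higher at that limit. No difference between these shares was tested. In all, 84 genes had only unique exon reads, the 8 called genes having at least 99.7%. In the RefSeq table, 93 genes matched a locus tag and formed 9 adjacent pairs. Among these pairs are rows that share a product name, such as the xp-G endonuclease rows Smp_210700, Smp_210710 and Smp_210720, which lay at -0.08, -0.12 and 0.04 with SE of 0.08, 0.06 and 0.09.

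The repair-annotated rows left out by the rule held further falls. Of 19 tested, 5 were lower and 0 higher (2.49% and 0.619% of all tested genes), with a median of -0.16. These were brca1 (Smp_132510) at -1.80, a nibrin-related gene (Smp_128870) at -1.85, a phosphatidylinositol 3- and 4-kinase (Smp_162340) at -2.04, the hypothetical protein Smp_193360 at -0.93 and enhancer of polycomb (Smp_014400) at -0.25. At an unadjusted p under 0.05, 9 were lower and 0 higher in edgeR (13.3% and 8.27% of all tested genes). Of 121 other tested genes annotated to DNA replication, DNAj rows among them, 21 were lower and 0 higher, with a median of -0.11. At an unadjusted p under 0.05, 34 of these genes were lower and 3 higher (edgeR). Their part in the changes of the repair genes was not tested. By product name, 8 tested genes carried a word for testis, sperm or meiosis. Of these, 0 were called by edgeR and 2 were lower at an unadjusted p under 0.05. The summed level of the list was 307.4 to 335.4 RPKM after irradiation and 300.4 to 334.0 RPKM in controls. The list does not measure testis tissue left after dissection, since it takes in mre11 and the nuclear autoantigenic sperm protein. The spo11 row had 98 reads and was not called, and the boule-related row had 11, too few to test. Lists for other cell types also came from words in product names and were not checked as markers. The neuron list takes in choline kinases, and the gut list methionyl aminopeptidases. By edgeR, the muscle list had 2 of 27 lower, tegument 3 of 49 higher, and neuron 1 lower and 1 higher of 33. In the gut list 0 of 23 were called, and in the vitelline list 0 of 2. At an unadjusted p under 0.05 (edgeR), muscle had 8 lower and 2 higher, tegument 0 and 13, and neuron 3 and 5. At that limit gut had 5 lower and 1 higher, and vitelline 0 in either direction.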

How the data were processed

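RNA from pooled male bodies was sequenced in 6 libraries, and the deposited table gives whole-number read counts per gene in several classes (all gene reads, exon reads, unique exon reads, exon-exon reads) and RPKM, per the file headers. Not given in the sources used here are the aligner, the counting settings and the genome build. The deposited RPKM equals exon reads per kilobase of exon and 1000000 gene reads (largest relative difference 3.77e-08). The authors' deposited ratios and p-values were not used for calls.

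Exon read counts were tested here with edgeR 4.0.16 in R 4.3.3 (TMM scaling, filterByExpr, quasi-likelihood, irradiated against control, no covariate), with Benjamini-Hochberg adjustment over the 8885 genes tested and a threshold of 0.05. The SE was taken as the size of the fitted log2 change over the root of its F statistic. The script was tested on simulated data. DESeq2 1.42.0 and limma 3.58.1 were alternatives, with other scalings, filters, read classes, each library left out and a replicate block. Leaving out both B libraries and counting exon-exon reads were chosen after seeing the data. All library pairs differed beyond sampling noise, by chi-squared per degree of freedom over genes. For irradiated B this was 14.7 with irradiated A and 12.8 with irradiated C. It was 9.39 with control A, 18.9 with control B and 12.5 with control C. Irradiated B thus lay no closer to its own group than to controls A and C.

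The genes and lists were chosen with earlier results of these data known. Genes named are those called lower or higher, those at an unadjusted p under 0.05, the 2 with the highest mean RPKM in each role and the 5 largest changes in each direction at a mean log2 CPM of at least 1. Others are named to fill out a pathway, chosen after their values were seen. Roles came from product names and then from annotation terms, with the terms DNA repair and response to DNA damage set aside since every gene carries 1 or both, and 8 genes were moved by hand by product name. Adjacent genes came from RefSeq (ASM23792v2), used for names and order only. Values of some genes that the rule names are not reported here.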

Additional observations from a re-analysis of the deposited data

How the results depend on the processing

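Over all genes, 221 were called lower and 55 higher. Lower counts were 490 with DESeq2, 77 with at least 5 CPM in 3 libraries, 140 and 139 with limma on log2(RPKM + 0.5) and log2(RPKM + 0.1), 851 with a replicate block, 612 without the B libraries and 119 to 723 when 1 library was left out. Higher counts were 127, 26, 277 with the block, 92 without B, and 16 to 129 when 1 library was left out, the first pair being DESeq2 and 5 CPM. Of the repair genes, 8 were called lower, and 15 with DESeq2, 2 of 81 tested with the 5 CPM filter, 4 with all gene reads, 4 with each limma fit, 18 with the replicate block, 5 of 83 tested with exon-exon reads (3 shared) and 3 to 13 when 1 library was left out. RLE and upper-quartile scaling and unique exon reads each gave 8. None was called higher under any of 18 alternatives. The labels do not say whether a letter marks a shared infection or day. Deviations of same-lettered libraries correlated at 0.087 (A), 0.219 (B) and -0.103 (C) across genes, above 0.1 for B only. Between unlike letters the values ran from -0.26 (irradiated B with control A) to 0.212 (irradiated C with control A). The letters were not taken as pairs. The cause of the moves in these counts was not tested.

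Among the named genes, 8 that were not called changed sign. With 1 library left out, log2 fold changes ran from -0.052 to 0.021 for Smp_035620, -0.028 to 0.020 for Smp_061920, -0.013 to 0.051 for Smp_082790, -0.044 to 0.043 for Smp_132690, -0.002 to 0.083 for Smp_135860, -0.465 to 0.115 for Smp_173300 and -0.069 to 0.012 for Smp_186980. Upper-quartile scaling gave 0.007 for Smp_035620, 0.018 for Smp_061920 and 0.023 for Smp_132690, and both limma fits 0.006, 0.015 and 0.021 for these genes. All gene reads gave 0.024 for Smp_061920, 0.014 for Smp_132690 and 0 for Smp_134090, and exon-exon reads 0.034 for Smp_132690.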
